A study of Rattus norvegicus with 10 samples.

Results

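The cytosolic ribosomal protein genes of the rat encode the protein parts of the ribosome's small and large subunits. They were followed here in the abdominal aorta of 2 inbred rat strains, Brown Norway (BN) and LOU. Members were all probe sets with a single annotated gene symbol made of Rpl, Rps or Rplp, digits, at most 1 of the letters a, l or x, and further digits, which leaves out kinases such as Rps6kb1. The rule used names and no measured value, and it found 46 probe sets for 42 genes, of 15866 probe sets and 10411 named genes in all. A further 34 probe sets list several symbols with at least 1 ribosomal protein among them, and these are not members. The family marker Rps6 is a member, while Rpl13 is read here only by a probe set with several symbols and is not.

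Each strain had 5 arrays of total RNA, hybridised to an Affymetrix array that reads transcripts near their 3′ end. The rats were untreated, and each array's age label was 5 weeks, while the growth notes allow up to 18 weeks of age and sex was not given in the labels. No genotype other than the strain, no transgene and no treatment was named for either group. Nothing in the labels ties an array to a separate animal, so p-values measure only the spread between these arrays, which may be technical. The labelled tissue was borne out by its smooth muscle markers, with mean signals of 11844.8 in BN and 11272.1 in LOU for the smooth muscle actin gene Acta2 and of 11140.7 and 10204.2 for the myosin gene Myh11. The number of arrays limits the precision, and in whole tissue fewer cells of a type cannot be told apart from less RNA per cell. BN array 3 stood apart in nerve markers and LOU array 1 in lymphocyte markers, and values without both are given with the results. Some cell markers also differed between the strains on the other arrays, as given below, and leaving out these arrays does not remove that.

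The cytosolic ribosome is built from ribosomal RNA and a fixed set of proteins, each needed in about equal number. The small subunit binds and decodes the messenger RNA, and the large subunit joins amino acids into the chain and lets it out through a tunnel. Messenger RNAs of these proteins usually begin with a tract of C and T bases, the terminal oligopyrimidine tract, through which growth signals that act by way of the kinase mTOR raise or lower their translation together. In an artery, smooth muscle cells, fibroblasts and endothelial cells all carry these messages at high levels, and growth of the vessel wall is known to go with more ribosome production.

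The start of the transcript is the feature these genes are known to share, and it was looked up for the members. The arrays read RNA and not translation, and any part of the tract in these signals was not tested. RefSeq entries on the GRCr8 assembly were matched by gene identifier for 35 of the 42 genes. The other 7, Rpl23a, Rpl27, Rpl30, Rpl37a, Rpl7, Rps29 and Rps9, had no entry in the table used. The window taken was the 25 bases before the annotated start and the 25 from it on, 50 bases in all. The 8 windows below are those of genes that the results name, chosen after their values were seen. They are the brightly read Rps23 and Rpl27a, genes with long tracts, genes at both ends of the strain difference, and the family marker Rps6. On the plus strand they lie at chr2:23814492-23814541 for Rps23, chr1:172974548-172974597 for Rpl27a, chr16:96492-96541 for Rps24, chr5:168117936-168117985 for Rpl22 and chr8:73566452-73566501 for Rpl4. On the minus strand they lie at chr7:113507966-113508015 for Rpl3, chr5:106420516-106420565 for Rps6 and chr12:41011666-41011715 for Rpl6. Each is printed from 5′ to 3′ on the gene's strand, and capitals mark its longest uninterrupted run of C and T.
Rps23: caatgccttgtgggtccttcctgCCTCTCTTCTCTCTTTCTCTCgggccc
Rpl27a: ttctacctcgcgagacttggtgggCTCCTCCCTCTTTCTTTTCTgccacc
Rps24: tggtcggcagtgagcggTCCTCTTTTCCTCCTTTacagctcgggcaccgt
Rpl22: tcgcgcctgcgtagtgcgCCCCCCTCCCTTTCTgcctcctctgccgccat
Rpl4: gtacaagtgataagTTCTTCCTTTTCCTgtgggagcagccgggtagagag
Rpl3: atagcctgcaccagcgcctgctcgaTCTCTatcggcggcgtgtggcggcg
Rps6: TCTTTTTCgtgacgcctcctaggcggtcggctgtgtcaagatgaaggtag
Rpl6: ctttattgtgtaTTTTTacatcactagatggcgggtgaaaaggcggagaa

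In Rps23 the run was 21 bases long and began 2 bases before the annotated start. Those of Rpl27a, Rps24 and Rpl22 were 20, 17 and 15 bases long and also covered the start. In Rpl6 and Rpl3 the longest run had 5 bases. A run of at least 8 bases was present in 24 of the 35 member windows (68.6%), against 19.4% of all 33469 promoters in the table and 18.9% of the 21851 that belong to protein-coding genes. The count took a run anywhere in the window and did not require it to cover the start. Those of Rps6 and Rpl7a began 25 bases before the start, at the edge of the window, and ended before it. A run at that edge may be longer than the length counted. The share is therefore not that of transcripts beginning with such a tract. The median longest run was 11 bases in members and 5 over all promoters. Annotated starts can be off by some bases, so a window without a run says only that these letters are not there.

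Short motifs known from promoters of housekeeping genes were also counted over the whole 300 bases of each entry, on both strands. Both motifs hold the letters AAG, so matches can overlap. The ETS core CCGGAAG was found in 9 of 35 members (25.7%), in 8.75% of all promoters and in 10.7% of those of protein-coding genes. The YY1 core AAGATGGC was found in 4 members (11.4%), in 3.17% of all promoters and in 3.67% of those of protein-coding genes. These matches describe the letters only.

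No strain difference in a cytosolic ribosomal protein gene passed the test. After Benjamini-Hochberg adjustment at 0.05, limma called 0 of the 46 member probe sets, against 0.788% of all probe sets. The calls over all probe sets were higher in BN for 0.246% and lower for 0.542%. At an unadjusted p under 0.05 the count was also 0 of 46, where 13.3% of all probe sets lay. In 0 of 46 did the 5 BN signals lie apart from the 5 LOU signals, against 4.18% of all probe sets. The median difference of BN minus LOU on the log2 scale was −0.05 over the members and −0.03 over all probe sets. Of the 46, 18 had a positive and 28 a negative difference, a split of 23 to 23 when arrays were centred on their medians and of 11 to 35 after quantile normalization. The members' median was 0.00056 with the former and −0.08 with the latter.

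Most members were read brightly. Taking a gene's brightest probe set where it had several, 37 of the 42 genes had a mean log2 signal above 10, a signal of 1024, and these are called bright. Their mean signals ran from 1726 to 9077, against a background level of 21.2 to 49.2 per array, set by bacterial control probes. Signals of different probe sets also depend on their probes and are not compared as levels between genes. Over the 37 bright genes the differences ran from −0.18 to 0.21, and their 95% intervals, each taken for its gene alone, all lay between −0.50 and 0.47. These bounds correspond to BN over LOU ratios of 0.708 and 1.38. The absence of a call does not show that the strains are equal within those bounds.

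Without BN array 3 and LOU array 1, 0 members passed the test and the members' median was −0.02. Of the 24 genes singled out by the rule for named genes, 12 then moved by over 1.5 times or turned sign. Rps6 was −0.09 in that fit, Rps3 −0.07, Rpl14 −0.06, Rpl7 −0.02 and Rplp0 −0.0026, all nearer to 0 than with every array. Rpl11 was 0.09, Rpl22 0.12, Rpl7a 0.15 and Rps29 0.04, all farther from 0, and Rpl13a was 0.0051. The paralogue Rpl7l1 was −0.20, and Rpl3l, near background, turned sign. The second, dim probe set of Rpl14 went to 0.85 (unadjusted p = 0.0348, limma adjusted p = 0.324).

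**Figure D1:**
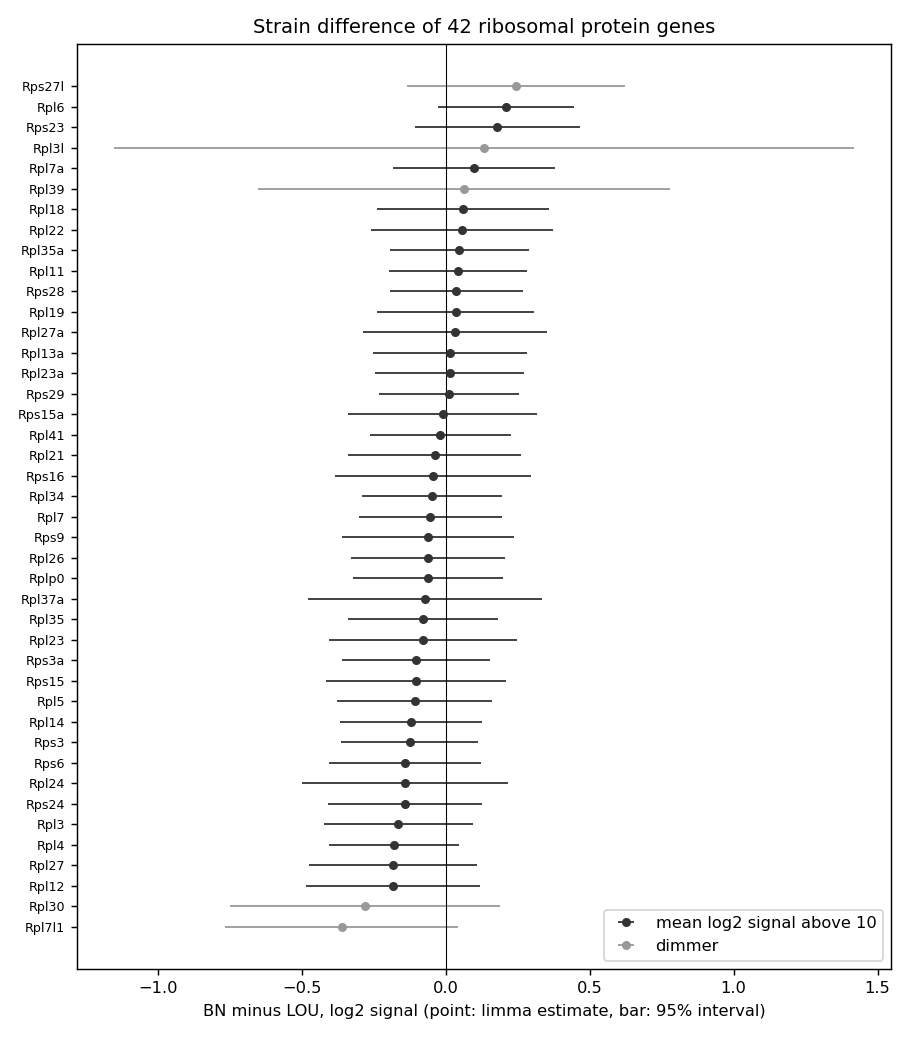
Difference of BN minus LOU in log2 signal for the 42 ribosomal protein genes, ordered by size, each from its brightest probe set; points are limma estimates, bars are 95% intervals, and grey marks the 5 dimmer genes. All 42 intervals include 0, and the bright genes run from −0.18 to 0.21.

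Among the 11 small subunit genes, 8 had a negative and 3 a positive difference, with a median of −0.06. Rps6, the protein that S6 kinases phosphorylate when growth signals are active, gave signals of 4930.6, 5052.7, 4820.5, 5435.4 and 6283.7 on BN arrays 1 to 5. On the LOU arrays it gave 6077.1, 5651.7, 6240.1, 6101.0 and 5106.3. BN array 5 was the highest of all and LOU array 5 lay among the BN values, so the strains overlap. The difference was −0.14 (SE 0.12, n = 5 per strain, limma adjusted p = 0.65).

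Rps23, a protein of the decoding centre, had the largest positive difference of the small subunit genes. Its BN signals were 7684.0, 7995.7, 7886.9, 8641.4 and 10783.3, and its LOU signals 7296.2, 7117.2, 8235.6, 8263.5 and 6846.1. The highest value, on BN array 5, stood well above the other 9, which ran from 6846.1 to 8641.4. The difference was 0.18 (SE 0.13, limma adjusted p = 0.595). Without BN array 5 it was 0.10.

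Rps3, which lies where the messenger RNA enters the small subunit, had BN signals of 2784.6, 3306.4, 2711.1, 3102.1 and 3293.1. The LOU signals were 3486.7, 3168.3, 3436.0, 3164.6 and 3273.9, above BN arrays 1, 3 and 4 and beside BN arrays 2 and 5 (log2 −0.13, SE 0.11, limma adjusted p = 0.656). Rps24, mutated in some families with Diamond-Blackfan anaemia, an inherited failure of red cell production, had means of 4104.0 ± 499 (SD, n = 5) in BN and 4509.2 ± 320 in LOU. Its difference was −0.14 with overlapping arrays. Rps29, a small zinc-binding protein, had nearly equal means of 9115.7 ± 754 and 9038.2 ± 622 (log2 0.01), and the sign of that difference turned in 6 of 22 alternatives, quantile normalization among them. The other 6, Rps3a, Rps9, Rps15, Rps15a, Rps16 and Rps28, lay within the small subunit range of −0.14 to 0.18.

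Among the 28 genes of the large subunit, paralogues aside, 17 had a negative and 11 a positive difference, with a median of −0.05. Rpl6, a protein on the solvent side of the large subunit, had the largest positive difference of the bright genes. Its signals were 4239.3, 4477.2, 3718.0, 4148.8 and 4673.9 on the BN arrays and 3754.4, 3663.3, 3934.1, 3535.3 and 3460.6 on the LOU arrays. Only BN array 3 fell inside the LOU range of 3460.6 to 3934.1, and the other 4 BN arrays lay above it. The difference was 0.21 (SE 0.11, 95% interval −0.03 to 0.45), a ratio of 1.16, with a limma adjusted p of 0.441. It stayed positive in all 22 alternatives, between 0.17 and 0.27, and passed in 0 of them (adjusted p 0.177 to 0.596).

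Rpl4, whose loop lines the tunnel through which the new chain leaves, lay on the other side. Its signals were 3098.3, 3213.0, 3041.5, 3578.4 and 3570.4 in BN and 3696.5, 3887.3, 3797.0, 3722.0 and 3546.6 in LOU. LOU array 5 alone lay inside the BN range, and the other 4 LOU arrays were above every BN array. The difference was −0.18 (SE 0.10, 95% interval −0.41 to 0.05, limma adjusted p = 0.49), and over the 22 alternatives it ran from −0.21 to −0.13.

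Rpl3, which reaches towards the peptidyl transferase centre, gave BN signals of 4909.4, 4656.2, 4091.4, 4283.9 and 5514.3. Its LOU signals were 5271.3, 5125.8, 5705.9, 5141.6 and 4926.1. The first 4 BN arrays lay below all LOU arrays and BN array 5 above 4 of them (log2 −0.16, SE 0.12, limma adjusted p = 0.59).

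Rpl12 sits at the base of the stalk that recruits elongation factors, and its difference was −0.18, with means of 2845.4 ± 390 in BN and 3220.2 ± 339 in LOU. Rpl27 also gave −0.18, with 2624.1 ± 360 and 2968.9 ± 306. Both overlapped between strains, with limma adjusted p-values of 0.607 and 0.595. Rplp0, the protein that anchors the stalk itself, had means of 3684.7 ± 322 for BN and 3844.9 ± 354 for LOU, a log2 difference of −0.06 (adjusted p = 0.858). The stalk partners Rplp1 and Rplp2 had no member probe set.

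**Figure D2:**
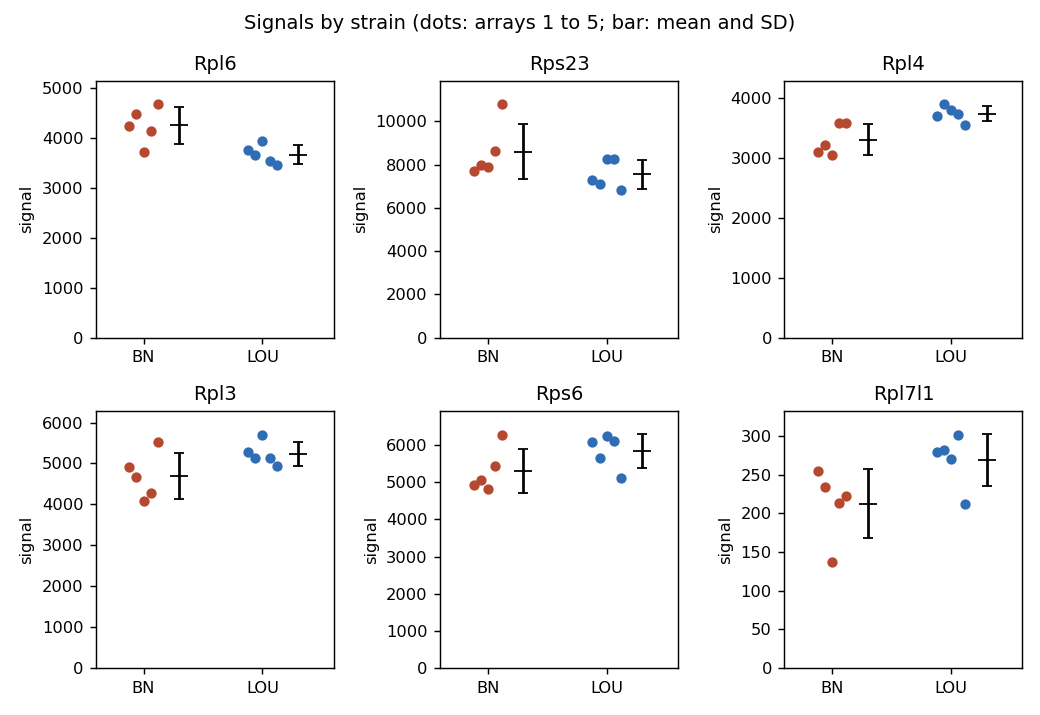
Signal, on a linear axis from 0, of 6 ribosomal protein genes in the BN and LOU strains; dots are arrays 1 to 5 from left to right, and the short line and bar give the mean and SD (n = 5). BN and LOU overlap in each gene, by 1 BN array in Rpl6 (3718.0) and by 1 LOU array in Rpl4 (3546.6).

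Rpl5 and Rpl11 form a particle with the smallest ribosomal RNA, and when assembly fails they bind Mdm2, the ligase that holds p53 in check. Rpl5 had means of 4801.6 ± 638 for BN and 5147.4 ± 316 for LOU (log2 −0.11, SE 0.12, limma adjusted p = 0.741), and the difference was −0.18 without BN array 5. Rpl11 was 3105.0 ± 265 and 3007.7 ± 158 (log2 0.04, SE 0.11, adjusted p = 0.893). Rpl13a, also known for silencing translation of inflammatory messages after its release from the ribosome, was 3329.3 ± 388 and 3283.8 ± 252 (log2 0.02, adjusted p = 0.97), and this sign turned in 4 of 22 alternatives, quantile normalization among them.

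The brightly read Rpl7a and Rpl27a showed the same overlap. Rpl7a had means of 7687.8 ± 776 for BN and 7195.4 ± 838 for LOU (log2 0.10, limma adjusted p = 0.782), and the difference was 0.04 without LOU array 5. Rpl27a was 7799.5 ± 1164 and 7614.3 ± 1052 (log2 0.03, adjusted p = 0.946), with a sign that turned in 3 of 22 alternatives, among them quantile normalization. Rpl22, a protein that the ribosome can do without but T cell development cannot, was 4049.8 ± 668 and 3866.0 ± 387 (log2 0.06, adjusted p = 0.893).

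Paralogues outside the standard set were read dimly. Rpl7l1, a paralogue of Rpl7, had the largest difference of all 42 genes, −0.36 (SE 0.18, 95% interval −0.76 to 0.04, limma adjusted p = 0.438). Its signals were 254.7, 234.3, 137.7, 214.0 and 222.7 in BN and 279.1, 282.4, 270.5, 302.0 and 212.3 in LOU, so 4 LOU arrays were above all BN arrays and LOU array 5 was not. Without BN array 3 the difference was −0.21. The second probe set gave −0.09 with overlapping signals.

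Rps27l, a paralogue of Rps27 that p53 can induce, gave 103.2, 148.3, 164.5, 184.7 and 160.3 in BN and 127.2, 136.1, 120.2, 145.5 and 106.1 in LOU. Of the BN arrays, 4 were above every LOU array and BN array 1 was below them all (log2 0.24, SE 0.17, limma adjusted p = 0.587). Without BN array 1 the difference was 0.38 (adjusted p = 0.307).

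Rpl3l, the form of Rpl3 that heart and skeletal muscle use, was above background on 1 of 5 BN arrays and 1 of 5 LOU arrays. Its means of 14.2 and 13.4 set no direction. Rpl39, a very short protein of the exit tunnel, ranged from 100.2 to 291.8 in BN and from 118.1 to 241.3 in LOU, a within-strain SD of 0.55 on the log2 scale, and the sign of its difference (0.06) turned in 5 of 22 alternatives. The single member probe set for Rpl30 gave 49.6 ± 9.43 and 60.9 ± 15.3, close to background.

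For 4 genes a second probe set was present, and it was dim each time. That of Rpl14 was above background on 1 array of each strain and gave 0.25, while the main one gave −0.12 (2759.3 ± 211 in BN and 3001.9 ± 258 in LOU). For Rpl7 the values were −0.29 at signals of 63.8 to 126.1 and −0.05 at signals of 3958.2 to 5302.2. For Rps24 they were 0.03 and −0.14. In Rpl14 and Rps24 the signs differed between probe sets, and in Rpl7 and Rpl7l1 they did not.

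Across arrays, the members moved together, within both strains. The mean of the 37 bright genes, each centred over the 10 arrays, was −0.11, −0.01, −0.17, 0.05 and 0.14 on BN arrays 1 to 5. On LOU arrays 1 to 5 it was 0.01, 0.01, 0.09, 0.09 and −0.10. BN arrays 1 and 3 and LOU array 5 were low, BN array 5 and LOU arrays 3 and 4 were high, and the LOU values lay wholly inside the BN range. On BN array 3, 2 of the 37 genes were above their own 10-array mean, and on BN array 5, 32 were. On LOU array 3 the count was 31 and on LOU array 5 it was 7.

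**Figure D3:**
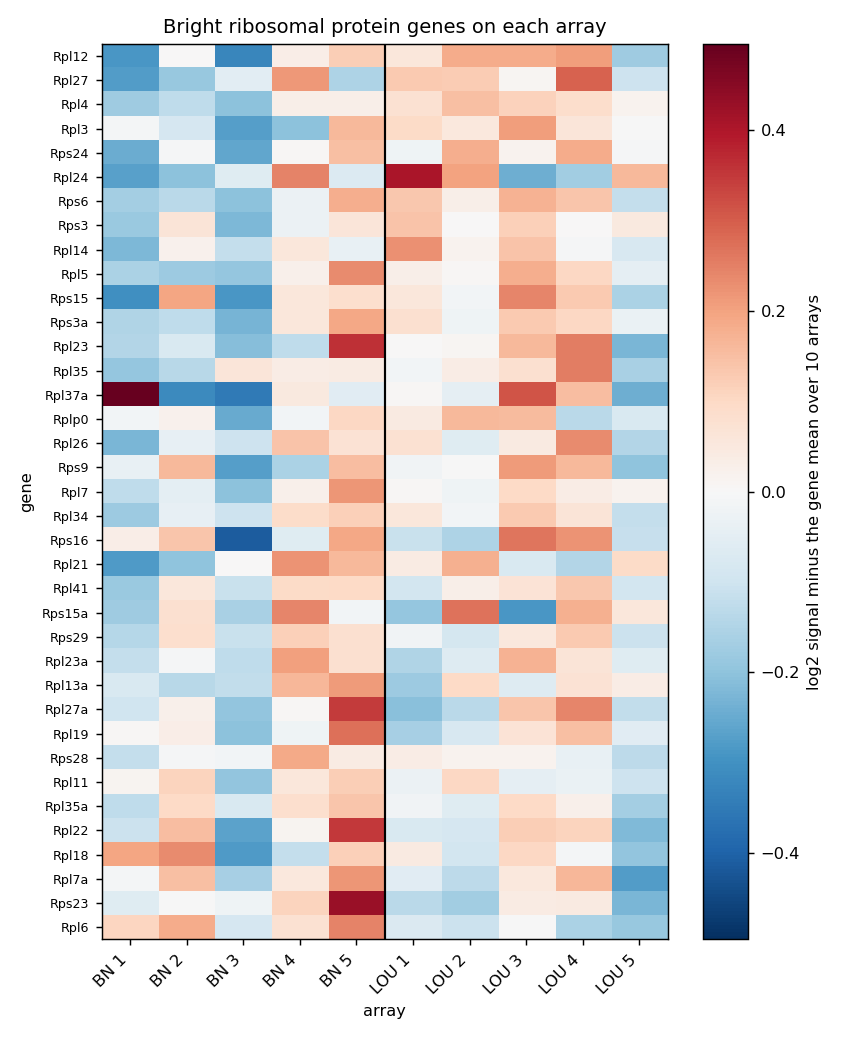
Log2 signal of the 37 bright ribosomal protein genes (rows) on the 10 arrays (columns), each gene centred on its mean over the arrays; red is above and blue below that mean, and the black line parts the BN from the LOU arrays. BN array 3 is blue in 35 of 37 genes and BN array 5 red in 32.

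Small and large subunit genes shared their lowest arrays, BN arrays 1 and 3 and LOU array 5, and their highest, BN array 5 and LOU arrays 3 and 4. Their means had opposite signs on BN array 2 (0.04 for the small and −0.03 for the large subunit) and LOU array 1 (−0.0043 and 0.0093). On BN array 3 the small subunit mean was −0.20 and the large subunit mean −0.16, and on BN array 5 they were 0.14 and 0.13. After strain means were taken out, the median Pearson correlation over 666 pairs of bright members was 0.55, with 90.1% of pairs positive. Over 268278 pairs of all 733 probe sets with a mean log2 signal above 10 the median was 0.10, with 55.7% positive. The points of each correlation are the same 10 arrays, so an array's scaling is shared by all pairs. Rpl12 (0.94), Rpl22 (0.93) and Rps3a (0.91) had the highest correlation with the mean of the other bright members, and Rpl37a (0.18) and Rpl24 (−0.14) the lowest. All 5 were picked with their values in view.

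Some genes deviated far on single arrays. Rpl37a gave 7665.4 on BN array 1, an array where most members were low, and 4261.6 to 6739.6 on the other 9. Rpl24 gave 2258.8 on LOU array 1 and 1414.4 to 2021.3 elsewhere. Rps16 gave 3736.2 on BN array 3, where the family was lowest, and at least 4480.4 on the other arrays. The 3 genes were picked for these deviations.

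On several arrays the level of the family was high where that of fat cell markers was low, and other marker lists also differed between arrays. The 5 measured of 6 brown adipocyte markers had centred means of 1.80, 2.19, 0.05, 0.51 and −1.55 on BN arrays 1 to 5 and of 0.45, 0.04, −1.72, −2.08 and 0.31 on LOU arrays 1 to 5. The 3 arrays with the lowest values were BN array 5 and LOU arrays 3 and 4. They also had the 3 highest means of the bright ribosomal protein genes. Over all 42 genes, LOU array 4 (0.06) lay below LOU array 2 (0.07) and BN array 4 (0.07). On BN array 3, with the lowest ribosomal mean, the brown adipocyte mean was near 0, and 6 of 8 nerve and Schwann cell markers averaged 2.54, while the remaining BN arrays lay at −0.33 to 0.59 and the LOU arrays at −1.16 to 0.35. Ucp1, the uncoupling protein of brown fat, ranged from 1005.3 to 12344.6 in BN and from 485 to 5451.2 in LOU, and myelin basic protein (Mbp) from 298.4 to 769.8 and from 75.9 to 198.2. Mbp was thus higher on every BN array than on any LOU array, and it passed the test (limma adjusted p = 0.046). The strain differences of the 6 adventitial fibroblast markers ran from −1.08 to 0.06, with a median of −0.65 (smallest limma adjusted p 0.073). The adipocyte markers averaged −0.82 on BN array 5, −0.59 on LOU array 3 and −0.87 on LOU array 4. Smooth muscle markers were highest on BN array 5 (0.38) and LOU array 4 (0.20), but gave −0.05 on LOU array 3. They gave −0.12 on BN array 3 and were lowest on LOU array 1 (−0.42). Erythroid markers were lowest on BN array 5 (−1.42) and gave 0.70 on LOU array 3. The part of any of these cells in the ribosomal protein level was not tested.

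RNA integrity, read as the log2 signal of the 3′ over the 5′ control probe set of beta-actin, ran from 1.80 to 2.43 in BN and from 1.95 to 2.20 in LOU. The highest value, 2.43, was on BN array 3 and the lowest on BN array 1, both of which had low ribosomal protein means. The same measure for GAPDH ran from 0.46 to 1.01, highest on LOU array 4, and for hexokinase from 1.55 to 2.99, highest on LOU array 3, and both of those arrays had high ribosomal protein means. The part of RNA integrity was not tested either. Member probe sets together took 3.32% to 3.96% of the summed signal of a BN array and 3.45% to 3.90% of that of a LOU array.

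**Figure D4:**
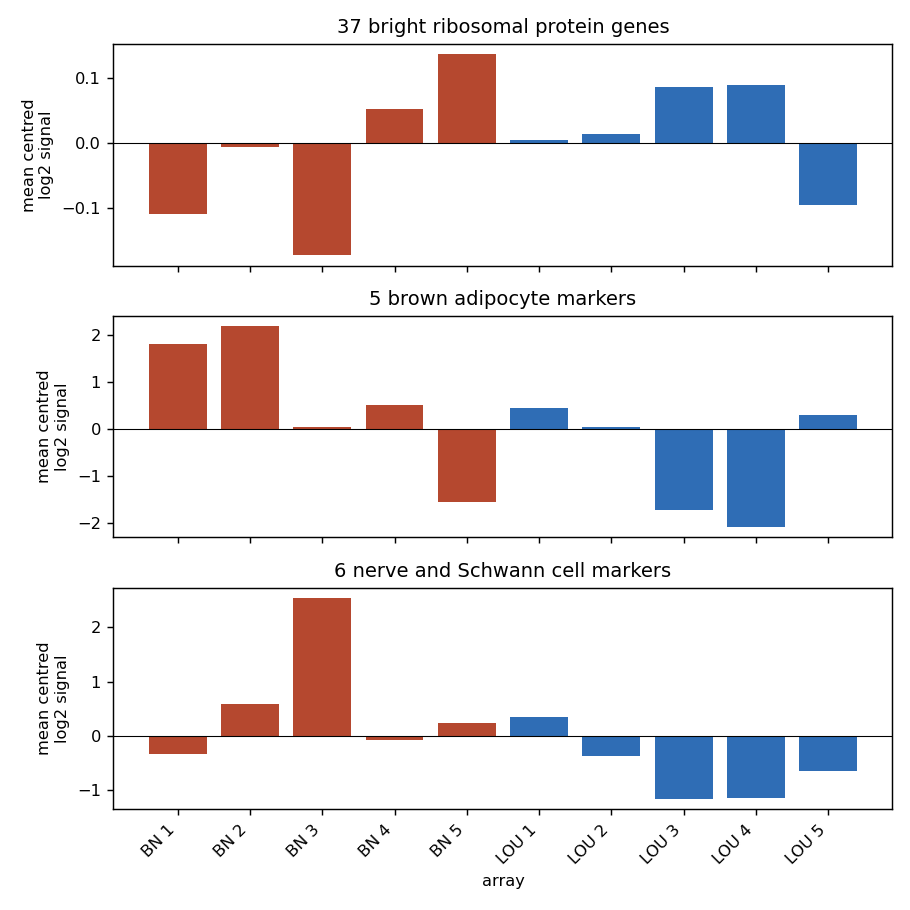
Mean centred log2 signal on each of the 10 arrays (BN in red, LOU in blue) of 37 bright ribosomal protein genes, 5 brown adipocyte markers and 6 nerve and Schwann cell markers; each panel has its own vertical scale. BN array 5 and LOU arrays 3 and 4 have the highest ribosomal means (0.14, 0.09 and 0.09) and the lowest brown adipocyte means (−1.55, −1.72 and −2.08).

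The spread between arrays of a strain was smaller in this family than over all bright probe sets, a set not matched to it for signal. The bright members had a median within-strain SD of 0.14 on the log2 scale, from 0.09 in Rpl4 to 0.28 in Rpl37a, and all 733 probe sets with a mean log2 signal above 10 had a median of 0.22. Of the 37, 35 had a smaller SD than that median, and 18.7% of the 733 had an SD below the members' median. The 733 include the members, whose mean log2 signals ran from 10.7 in Rpl24 to 13.1 in Rps29. Spread can depend on signal, and probe sets of equal signal were not compared. When the shared array mean was taken out, the members' median SD was 0.09, and the shared mean itself had an SD of 0.10.

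**Figure D5:**
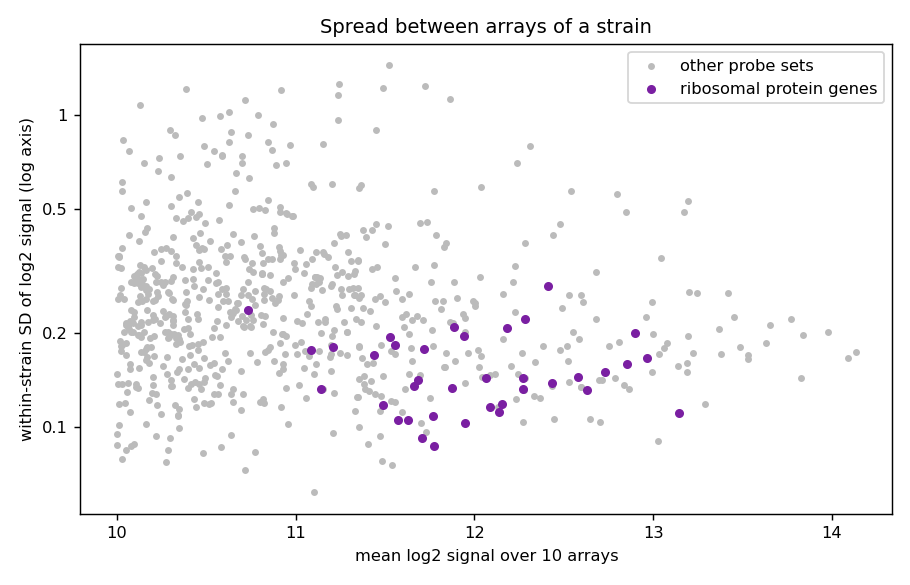
Within-strain SD of log2 signal (log axis) against mean log2 signal for the 733 probe sets with a mean log2 signal above 10; purple points are the 37 bright ribosomal protein genes. The members' median SD is 0.14 and that of all 733, the members among them, is 0.22.

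Probe sets that list several symbols, most of them a ribosomal protein gene with its near copies and pseudogenes, gave a second reading of the family. Of these 34, 26 were negative and 8 positive, with a median of −0.05 and 0 past limma's test, where 0.788% of all probe sets passed. Their array means were −0.17, −0.02, −0.14, 0.04 and 0.10 on the BN arrays and 0.03, 0.05, 0.12, 0.07 and −0.08 on the LOU arrays. The 3 lowest and the 3 highest arrays were those of the bright members. In 1 of the 34, with 3 symbols, the strains did not overlap, a share below the 4.18% of all probe sets. It gave 2047.1, 3284.6, 2992.3, 3235.9 and 3015.6 in BN and 4065.0, 4197.0, 4563.5, 4080.3 and 4163.3 in LOU (log2 −0.55, SE 0.15, 95% interval −0.87 to −0.23, limma adjusted p = 0.138). It was chosen after its values were seen, and the gene it reads is not named here because its annotation is shared. The other 33 lay between −0.21 and 0.08.

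Partners of the ribosome were counted by list, each beside the 0.788% of all probe sets that passed, a share at which lists of this size hold few calls or none. Rpsa and Rack1, small subunit proteins whose names fall outside the pattern, were the 2 measured of 5 such genes and gave −0.07 and −0.05. Of 8 measured elongation factor genes 0 passed (median −0.04), and they ran from −0.26 in Eef1a1, which carries transfer RNAs to the ribosome, to 0.45 in Eef1a2, its muscle and nerve form. The Eef1a2 value rests on BN array 3, the array apart in nerve markers, where its signal was 725.8. It was 81.6 to 143.9 on the other BN arrays and 95.8 to 155.9 on the LOU arrays. Of 38 initiation factor genes 0 passed (16 positive, 22 negative, median −0.06).

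Of 30 measured ribosome assembly genes 0 passed, against 0.788% of all probe sets, with 18 positive and a median of 0.09. They ran from −0.62 in Ltv1, a factor of small subunit export, to 0.68 in Nop14, a factor of small subunit processing, with a smallest limma adjusted p of 0.178. Nop14 was dim, at 23.3 to 49.5 in BN and 11.9 to 40.2 in LOU, and below background on some arrays of each strain. Of 15 genes of growth signalling to translation 0 passed (median 0.05). They ran from −0.65 in Rps6kb1, the kinase that phosphorylates Rps6, to 0.27 in Pdpk1, a kinase that activates it (smallest adjusted p 0.18). The genes named from these lists are the ends of each range.

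Mitochondrial ribosomal proteins serve the separate ribosome of that organelle, and most of their differences were positive. Their split is given for the main fit only, and that of the cytosolic members changed with the scaling. Of 71 genes 56 were positive and 15 negative, with a median of 0.14 and 0 past the test, where all probe sets had a median of −0.03 and 0.788% passed. The difference between the families was not tested. Their array means were highest on BN array 2 (0.29) and lowest on LOU array 4 (−0.19), which were also the highest and lowest arrays of the brown adipocyte markers. Between these ends the order differed. LOU array 1 (0.20) lay above BN array 1 (0.13), where the brown adipocyte means were 0.45 and 1.80. The part of brown fat in these levels was not tested.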

How the data were processed

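Total RNA of BN and LOU abdominal aorta was measured on 10 arrays, 5 per strain, with groups taken from the labels' titles. The deposited table holds a linear intensity for every probe set on every array. RMA, with no version, is the method given in the submitters' processing notes. The deposited intensity values reach 22219.9, hold 4 zeros and share a 2% trimmed mean of 200.05 to 200.06, while their medians differ between arrays. These values are at odds with the named method, and they were taken as linear and already scaled. Other steps are not given in the sources used here. Log2 of the signal was computed, with 4 zeros set to 0.1.

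All probe sets other than 57 controls were fitted by limma 3.58.1 under R 4.3.3 (functions lmFit and eBayes, strain as the only term, two-sided), with Benjamini-Hochberg adjustment over all 15866 and a threshold of 0.05. Of these, 12783 had 1 symbol, 312 several and 2771 none. Symbols were updated through the RefSeq table of GRCr8. Of the 46 member probe sets, 44 have a gene identifier in it, and the others kept their listed symbol. Each gene was read from its brightest probe set. Background was set per array from 45 bacterial control probe sets, at their 95th percentile, and 43 of 46 members were above it on every array. The limit for bright genes was chosen after seeing the data.

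The members, lists and tests were chosen with earlier results of these data known. Named genes are the 6 largest differences in each direction, the 4 brightest and 4 dimmest genes, genes fixed for their role (ribosome stalk, p53 regulation, paralogue pairs and others), and 4 genes with several probe sets. Genes outside this rule are marked as chosen later. Alternatives were other scalings, low-value treatments, variance models, probe set choices, the replicate number as a block and arrays left out. The scripts were tested on simulated data. Python 3.11.15 with pandas 2.3.3, numpy 2.4.6 and matplotlib 3.10.9 made summaries and plots. Median signals ran from 97.4 to 105 per array, and any pair of arrays shared at most 0.353% of their values.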

Additional observations from a re-analysis of the deposited data

Results flagged for a closer look

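In 1 of 50 groups of 5 arrays checked, an array lay far from the others of its strain: the Rpl3l signal of LOU array 2 was 35.4, against 5.9 to 10.1 on the other LOU arrays. Chance flags about 1 group in 20. The Rpl3l value is close to the background level. Not all members were among the groups checked. Of those left out, Rpl23 gave 5983.8 on BN array 5 and 4020.9 to 4413.3 on the other BN arrays. The second Rpl14 probe set gave 30.9 on LOU array 1 and 8.3 to 10.0 on the other LOU arrays.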

How the results depend on the processing

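In 22 alternatives, and with 2 other choices of members, 0 member probe sets passed limma's test (smallest adjusted p 0.17, with signals under 32 set to 32, where Rpl6 and Rpl4 had unadjusted p-values of 0.00954 and 0.00895). In 5 other alternatives 1 or 2 members lay under an unadjusted p of 0.05, among them Rps27l (0.0213 without BN array 1), Rpl6 (0.0445 with median centring) and Rpl7l1 (0.041 without LOU array 5). Over all probe sets the share under that p was 13.3% with the floor of 32 and 11.3% to 13.9% in the 5 others. The members' median ran from −0.08 to 0.00056 and from −0.08 to −0.00478 with 1 array left out. Members whose strains do not overlap numbered 2 with quantile normalization (Rpl6 and Rpl4; 4.19% of all probe sets), 1 without BN array 3 and LOU array 1 (Rpl6; 9.04% of all) and 0 to 2 with 1 array left out (5.11% to 6.96% of all). Leaving out the single array that overlaps fixes such a count in advance. Of 24 named genes, 17 kept their sign throughout, and 7 did not, and 16 moved by over 1.5 times or turned with 1 array left out. Quantile normalization turned Rpl13a to −0.019, Rpl27a to −0.059 and Rps29 to −0.11, and the mean of probe sets turned Rpl14 to 0.063. Array weights turned Rpl39 to −0.0088. The fitted value of Rpl3l, at background on most arrays, sets no direction and turned to −0.029 with a floor of 32 and to −0.091 without BN array 3 and LOU array 1. With 1 array left out the values ran from −0.035 to 0.052 for Rpl13a, −0.023 to 0.13 for Rpl22, −0.049 to 0.098 for Rpl27a, −0.11 to 0.28 for Rpl39, −0.20 to 0.57 for Rpl3l and −0.017 to 0.048 for Rps29. The cause of these turns was not tested. The replicate numbers share no stated source, and arrays with the same number correlated between −0.06 and 0.17 over 10001 probe sets. With the replicate number as a block 0 members passed (median −0.05), and 1 of 10 arrays correlated best with its own number. With the ribosomal mean of each array as a covariate, an alternative added after seeing the data, the median was −0.01 and Rpl6 gave 0.24 (limma adjusted p = 0.422). Dim signals near background limit what can be said of Rpl3l, Rpl30, Nop14 and the second Rpl14 probe set.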

Other observations

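A control probe set for the smallest ribosomal RNA, which carries no poly(A) tail, gave signals of 42.9, 58.7, 49.4, 60.7 and 53.1 on the BN arrays and 43.8, 48.0, 47.5, 41.7 and 48.8 on the LOU arrays. BN array 1 was below its background level of 49.2.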
